A study of Mus musculus with 38 samples.

Results

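Siglecs are cell surface receptors that bind sialic acids, the sugars that cap most glycan chains of animal cells. The Siglec family genes Siglec1, Siglece, Siglecf, Siglecg, Siglech, Cd22 and Cd33 were taken by symbol from the table of 43346 mouse genes, so that 7 genes of 43346 are described. All 7 were found in the table, and all 7 were among the 14095 genes that passed the filter on low counts. They were followed over 12 RNA libraries of macrophages sorted from the lungs of naive C57Bl/6 mice aged 8 to 10 weeks, with 3 libraries (A, B and C) for each of 4 populations. The labels name no altered gene and no agent for any group.

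Interstitial macrophages, which lie in the lung tissue, were sorted from MerTK-enriched cells as live CD64+ CD11b+ cells that lacked CD43, CD24, Siglec F, Ly6G and the lymphoid markers CD3, NK1.1 and B220. They were split into IM1 (CD206 high, MHC class II low), IM2 (high for both) and IM3 (CD206 low, MHC class II high), and the labels add that IM3 carried CD11c while IM1 and IM2 were CD11c low. Alveolar macrophages (AM), which lie in the air spaces, were sorted as CD11c+ Siglec F+ cells that lacked CD11b, CD103, Gr1 and the same lymphoid markers. Siglec F therefore served as a gate in both sorts, and the Siglecf transcript is described between AM and the interstitial populations with no test. Whether the 3 libraries of a population stand for separate animals or pools is not given in the labels, so every p-value here reflects how much these libraries varied and no more.

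Most Siglecs carry inhibitory motifs in their cytoplasmic tails, which recruit the phosphatases SHP-1 and SHP-2 after Src family kinases phosphorylate them. Siglec-1, also called sialoadhesin or CD169, has a long extracellular part and no such motif, and it marks macrophages that capture sialylated particles. Siglec-H has no inhibitory motif of its own and signals through the adaptor DAP12. In the lung, Siglec-F is the standard surface marker of alveolar macrophages and is also carried by eosinophils.

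The libraries held between 11818981 and 15758326 reads assigned to genes, and a gene with 0 counts could have had up to 0.19 to 0.254 CPM (counts scaled to a common library size), a limit of 3 counts that covers counting error only. IM1 library A stood apart from its replicates. The chi-square per degree of freedom over genes was 81.34 and 63.67 between it and the other IM1 libraries, and 8.67 to 23.43 in all other pairs of replicates. No member lost a call when IM1 A was left out. Mertk and Fcgr1, which encode the gate proteins MerTK and CD64, were present in all libraries, at no less than 166 and 81 CPM of assigned reads. The summed level of 10 interstitial macrophage markers was 20500 to 48800 CPM in interstitial libraries, against 19.9 to 24.6 CPM in AM. The summed level of 10 alveolar macrophage markers was 320 to 838 CPM in interstitial libraries, against 8110 to 8150 CPM in AM. Of 8 T and NK cell markers, Trac alone reached high values, with 4070 CPM in 1 IM1 library, 1130 CPM in 1 IM2 library and 645 CPM in 1 IM3 library, and 0 counts in AM. Cd3d, Cd3e and Cd3g did not exceed 0.62 CPM in any library, Ncr1 had 0 counts in all, and Klrb1c reached at most 7.64 CPM.

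The Siglec makeup differed between the interstitial populations and AM and, within the interstitial populations, between IM3 and the others. To compare genes with one another, levels were divided by exon length, which gives CPM per kilobase. In IM1 the order was Cd33 (153 ± 17.3 CPM per kilobase; SD, n = 3), Siglech (104 ± 24.2), Siglece (56.7 ± 1.91), Siglec1 (31.7 ± 6.21), Cd22 (3.15 ± 0.687), Siglecf (0.334 ± 0.167) and Siglecg (0.103 ± 0.0554). In this order the library ranges of neighbours did not overlap. IM2 had the same order, with Cd33 at 149 ± 18 CPM per kilobase, Siglech at 88.5 ± 13.3, Siglece at 80.6 ± 2.61, Siglec1 at 36.5 ± 4.28, Cd22 at 3.11 ± 0.528, Siglecf at 0.502 ± 0.225 and Siglecg at 0.163 ± 0.0949. There the ranges of Siglech and Siglece overlapped, at 73.1 to 96.3 and 77.6 to 82.4 CPM per kilobase, so their order is not resolved.

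In IM3 the order was led by Cd33 (124 ± 1.23 CPM per kilobase) and Siglece (109 ± 6.57), and Siglech (8.55 ± 2.26) and Siglec1 (7.11 ± 0.828) followed far behind with overlapping ranges. Cd22 (2.13 ± 0.157 CPM per kilobase), Siglecf (1.17 ± 0.0707) and Siglecg (0.12 ± 0.0223) came last. AM had a different leader, the gated Siglecf (153 ± 6.9 CPM per kilobase), followed by Siglec1 (67.3 ± 4.12) and Cd33 (48.8 ± 2.68). Cd22 (33.2 ± 3.74 CPM per kilobase) and Siglece (32.5 ± 0.968) overlapped in AM, Siglecg was at 0.311 ± 0.0859 and Siglech had no count.

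Summed over the 7 genes, the level was 349 ± 33.5 CPM per kilobase in IM1, 358 ± 6.95 in IM2, 252 ± 3.3 in IM3 and 335 ± 8.73 in AM. As shares of that sum, given as means of 3 libraries with SDs of at most 4.76 percentage points, Cd33 made up 43.8% in IM1, 41.6% in IM2, 49.3% in IM3 and 14.6% in AM. Siglece made up 16.4% in IM1, 22.5% in IM2, 43.1% in IM3 and 9.7% in AM. Siglech made up 29.6% in IM1 and 24.7% in IM2 but 3.4% in IM3, and AM had none. In IM3, Cd33 and Siglece thus held most of the family's transcripts, while in AM the largest share belonged to Siglecf (45.6%) and the next to Siglec1 (20.1%).

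**Figure D1:**
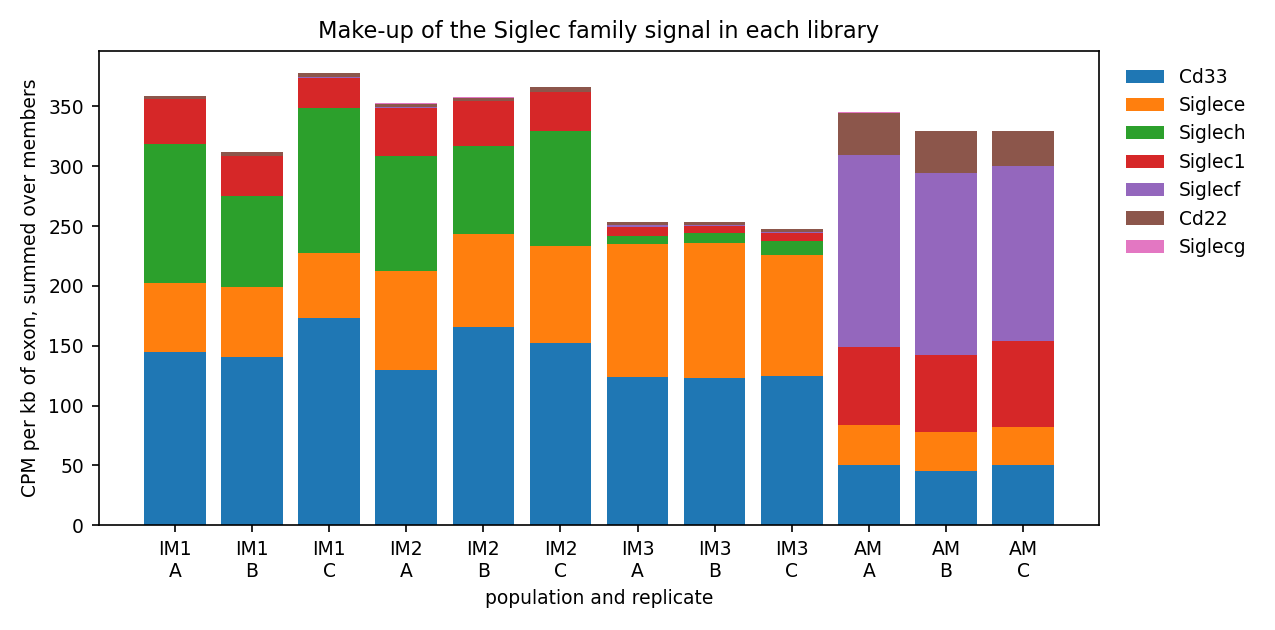
Siglec family makeup of each library, as CPM per kilobase of exon stacked by gene, with 3 bars for the 3 libraries of each population. Siglech fills a mean of 29.6% of the IM1 bars and is missing from AM, where Siglecf fills a mean of 45.6%.

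Against AM, 3 members were higher in the interstitial populations (Siglece, Siglech and Cd33) and 3 were lower (Siglec1, Siglecg and Cd22). These calls used edgeR's quasi-likelihood test with Benjamini-Hochberg adjustment over all genes tested, on the mean of IM1, IM2 and IM3 against AM and a threshold of 0.05. So 6 of the 6 members tested were called, with Siglecf left out because of its gate, but 64.6% of all genes tested were called in the same comparison, 35.9% higher and 28.7% lower. Siglech passed the filter on low counts through interstitial libraries alone, so its direction was fixed by the filter. Without it, 2 of 5 members were higher and 3 were lower. The count of members is therefore read beside a background in which most genes differed. In sorted bulk samples, fewer cells that express a gene and less RNA per cell cannot be told apart.

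Siglec1, the sialoadhesin gene (chr2:131069220-131086765, mm10, minus strand), was at 267, 233 and 179 CPM in IM1 libraries A, B and C, and at 287, 268 and 227 CPM in IM2. It was at 56.4, 44.6 and 51.4 CPM in IM3, and at 465, 462 and 514 CPM in AM. All AM libraries lay above all interstitial ones, all IM3 libraries lay below all others, and IM1 and IM2 overlapped. The log2 fold change was -1.09 ± 0.15 (SE) for IM1 against AM, -0.88 ± 0.15 for IM2 against AM (edgeR adjusted p = 0.000113) and -3.24 ± 0.16 for IM3 against AM. Within the interstitial populations Siglec1 was higher in IM1 than in IM3 by a log2 fold change of 2.15 ± 0.16 (edgeR adjusted p = 9.36e-08) and higher in IM2 than in IM3 by 2.36 ± 0.16 (edgeR adjusted p = 1.41e-07). The IM1 to IM2 difference of -0.2 ± 0.15 did not pass (edgeR adjusted p = 0.49).

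Cd33 encodes the receptor after which the CD33-related Siglecs are named, and it was the highest family member per kilobase in all 3 interstitial populations. It was at 373, 362 and 444 CPM in IM1, at 334, 426 and 391 CPM in IM2, at 320, 316 and 322 CPM in IM3 and at 130, 117 and 129 CPM in AM. Every interstitial library lay above every AM library. The log2 fold change was 1.54 ± 0.11 for the interstitial mean against AM (edgeR adjusted p = 5.88e-09), with 1.65 ± 0.13 for IM1, 1.61 for IM2 and 1.35 ± 0.13 for IM3. Cd33 differed little among the interstitial populations. The IM1 libraries all lay above the IM3 libraries, but the log2 fold change of 0.3 ± 0.12 for IM1 against IM3 did not pass (edgeR adjusted p = 0.0896), nor did that of 0.26 ± 0.12 for IM2 against IM3 (edgeR adjusted p = 0.225).

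Siglece, the gene of the inhibitory receptor Siglec-E of mouse myeloid cells, had a level of its own in each of the 4 populations, lowest in AM and highest in IM3. It was at 106, 107 and 101 CPM in IM1, at 152, 143 and 151 CPM in IM2, at 206, 209 and 187 CPM in IM3 and at 62.2, 59 and 59.2 CPM in AM. No ranges overlapped between any of the 4 populations. Against AM the log2 fold change was 0.8 ± 0.11 for IM1, 1.31 ± 0.11 for IM2 and 1.74 ± 0.11 for IM3. IM1 was lower than IM3 by a log2 fold change of -0.94 ± 0.11 (edgeR adjusted p = 7.99e-06), IM1 was lower than IM2 by -0.51 ± 0.1 (edgeR adjusted p = 0.021) and IM2 was lower than IM3 by -0.43 ± 0.1 (edgeR adjusted p = 0.0117). The IM1 to IM2 call was lost when only those libraries were fitted (adjusted p = 0.254), when libraries were weighted by quality (adjusted p = 0.0853) and without IM1 C, IM2 A, IM2 B or IM2 C (adjusted p = 0.0891, 0.0527, 0.063 and 0.0767). The IM2 to IM3 call was lost with no filter on low counts (adjusted p = 0.0724) and without IM2 B, IM3 A or IM3 B (adjusted p = 0.0558, 0.0508 and 0.0624).

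**Figure D2:**
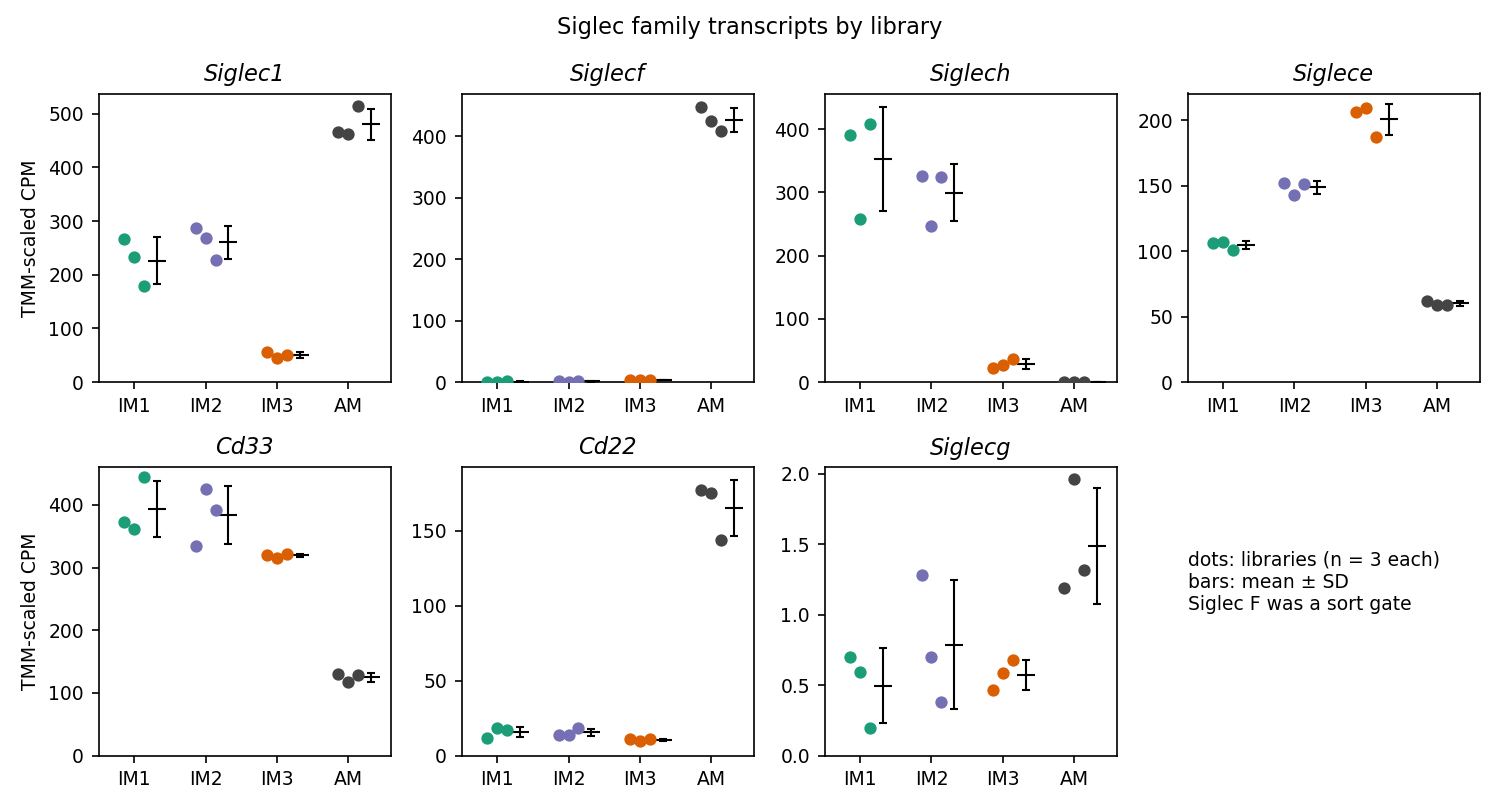
Level of each Siglec family gene in every library, in TMM-scaled CPM, with 1 panel a gene and the populations ordered IM1, IM2, IM3 and AM; points are libraries and bars are means with SD (n = 3). Siglece shows separate ranges in all 4 populations, and Siglech is at 0 in all AM libraries.

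Siglech, a receptor gene best known as a marker of plasmacytoid dendritic cells and of microglia, separated the populations most widely. It was at 391, 258 and 408 CPM in IM1, at 326, 247 and 325 CPM in IM2 and at 22.7, 26.7 and 37.4 CPM in IM3. It had 0 counts in AM A, B and C. The 12 libraries thus fell into a high set (IM1 and IM2), a lower set (IM3) and a set without a read (AM).

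Set against a limit of 3 counts over all AM libraries, Siglech was at least 4910-fold higher in IM1, at least 4210-fold higher in IM2 and at least 407-fold higher in IM3. IM1 exceeded IM3 by a log2 fold change of 3.61 ± 0.23 (edgeR adjusted p = 8.79e-08), and IM2 exceeded IM3 by 3.37 ± 0.22 (edgeR adjusted p = 4.45e-07). The ranges of IM1 and IM2 overlapped, and their log2 fold change of 0.24 ± 0.2 did not pass (edgeR adjusted p = 0.556).

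Markers of plasmacytoid dendritic cells moved in both directions among the interstitial populations. Their summed level over 11 genes was 565 to 624 CPM of assigned reads in IM1, 556 to 606 in IM2, 589 to 643 in IM3 and 187 to 211 in AM. Nearly all of it came from Tcf4 and Irf8 in interstitial libraries, and other cells also express these genes. Tcf4 had the same order as Siglech, with means of 321 CPM in IM1, 253 CPM in IM2, 157 CPM in IM3 and 8.91 CPM in AM, as did the scarce Cox6a2 (1.98, 1.28, 0.525 and 0.13 CPM in that order of populations). Irf8 ran the other way among the interstitial populations, with means of 267 CPM in IM1, 316 CPM in IM2, 445 CPM in IM3 and 163 CPM in AM. Spib averaged 0.557 CPM in IM1, 0.564 CPM in IM2 and 0.119 CPM in IM3, and had 0 counts in AM. The marker Klk1 had 0 counts in all 12 libraries, and 6 of the 11 in IM1 and IM2 and 7 in IM3 and AM averaged under 1 CPM. The part of this list in the differences of Siglech was not tested. Conventional dendritic cell markers, 8 genes, summed to 104 to 124 CPM in IM1, 120 to 132 CPM in IM2, 36.4 to 59.2 CPM in IM3 and 4.7 to 6.09 CPM in AM, and their part was not tested either. Within that list Cd209a and Zbtb46 had lower means in IM3 than in IM1 and IM2, with Cd209a means of 65.5, 69.9 and 4.77 CPM in IM1, IM2 and IM3, while Flt3 means ran the other way, at 2.86, 6.44 and 17.8 CPM.

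Cd22, which encodes an inhibitory receptor known mainly from B cells, was highest in AM. It was at 11.8, 18.2 and 17 CPM in IM1, at 14.1, 13.8 and 18.5 CPM in IM2, at 11.2, 9.74 and 11 CPM in IM3 and at 177, 175 and 144 CPM in AM. All AM libraries lay far above the 9 interstitial ones. The mean of the interstitial populations was lower than AM by a log2 fold change of -3.59 ± 0.12, a 12-fold difference (edgeR adjusted p = 7.45e-13).

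B cell markers moved the other way. Their summed level over 11 genes was 196 to 271 CPM of assigned reads in IM1, 193 to 220 CPM in IM2 and 54.1 to 56.8 CPM in IM3, against 1.27 to 2.7 CPM in AM. In AM all 11 were under 1 CPM, with Cd79b and Pax5 at 0 counts. In the interstitial libraries the sum came mostly from Bank1 and Cd79b, Pax5 had 0 counts in all 12 libraries and 9 of the 11 averaged under 1 CPM. Their summed level was thus lower in IM3 than in IM1 and IM2, as were Siglech and Siglec1, and their part in the interstitial levels of Cd22, Siglech and Siglec1 was not tested. The antisense gene that overlaps Cd22 had 0 counts in all libraries. Strand was not used and reads matching several genes were left out, so this cannot show whether Cd22 lost reads in the overlap.

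Among interstitial populations Cd22 differed little. IM1 was higher than IM3 by a log2 fold change of 0.56 ± 0.18 (edgeR adjusted p = 0.032), while IM2 against IM3 (0.54 ± 0.18) did not pass (edgeR adjusted p = 0.0652). The IM1 to IM3 call was lost when only those libraries were fitted (adjusted p = 0.102), under quality weights (adjusted p = 0.113) and without IM1 B, IM1 C, IM3 A, IM3 B or IM3 C (adjusted p = 0.0667 to 0.113). The IM2 to IM3 difference gained a call with DESeq2 (adjusted p = 0.0408), with no filter on low counts (adjusted p = 0.0372), with only those libraries (adjusted p = 0.0412) and without IM1 A or IM1 B (adjusted p = 0.0123 and 0.0417).

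Siglecg, whose product Siglec-G restrains B-1 cells, was scarcely transcribed. It had 8, 9 and 3 reads in IM1, 17, 10 and 6 in IM2, 7, 8 and 10 in IM3 and 17, 28 and 18 in AM. Only AM had more than 10 reads in every library, 3 of 9 interstitial libraries reached the cutoff of the filter on low counts, and the ranges of IM2 and AM overlapped. The mean of the interstitial populations was lower than AM by a log2 fold change of -1.3 ± 0.41 (edgeR adjusted p = 0.0113), a call that was lost without AM B (adjusted p = 0.0886). IM1 was also lower than AM (-1.6 ± 0.55, edgeR adjusted p = 0.0203), as was IM3 (-1.36 ± 0.54, edgeR adjusted p = 0.04), but IM2 against AM (-0.94 ± 0.52) did not pass (edgeR adjusted p = 0.133). The IM1 call was lost without IM1 C (adjusted p = 0.0944) or AM B (adjusted p = 0.0857). The IM3 call was lost without IM2 B, any IM3 library or any AM library (adjusted p = 0.0526 to 0.149). No difference of Siglecg among the interstitial populations passed (edgeR adjusted p = 0.557 for IM1 against IM2, 0.806 for IM1 against IM3 and 0.762 for IM2 against IM3).

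Siglecf was found at traces in the cells selected against its protein. IM1 libraries had 5, 15 and 21 reads, IM2 libraries 17, 12 and 33, and IM3 libraries 53, 43 and 47. As levels these were 0.436 to 1.36 CPM in IM1, 0.841 to 2.08 CPM in IM2 and 3.15 to 3.5 CPM in IM3, against 447, 425 and 408 CPM in the AM libraries, which were selected for the protein. The means of IM1, IM2 and IM3 were 0.218%, 0.328% and 0.768% of the AM mean. All interstitial populations passed the same Siglec F-negative gate, so differences among them can be tested.

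Siglecf was lower in IM1 than in IM3 by a log2 fold change of -1.75 ± 0.3 (edgeR adjusted p = 0.000501) and lower in IM2 than in IM3 by -1.21 ± 0.28 (edgeR adjusted p = 0.00912), with no overlap of IM3 with either. The IM1 to IM2 difference of -0.55 ± 0.34 did not pass, and those ranges overlapped. Of 10 other alveolar macrophage markers, 8 had a lower mean in IM3 than in IM1. Car4, for example, stood at 0.646% of its AM mean in IM1 and 0.167% in IM3, and Marco at 0.713% in IM1 and 0.254% in IM3. The exceptions were Pparg, at 6.98% of its AM mean in IM1 and 23.1% in IM3, and Lpl, at 9.08% in IM1 and 18% in IM3. Of 7 eosinophil markers, Epx, Prg3 and Il5ra had 0 counts in all libraries, and the summed level did not exceed 1.25 CPM of assigned reads in any interstitial library or 2.35 CPM in AM.

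Siglecf, Siglecg, Cd33 and Siglece lie within 308.8 kb of mouse chromosome 7 (mm10), Cd22 and Siglech lie elsewhere on that chromosome, and Siglec1 lies on chromosome 2. Siglecf is at chr7:43351341-43359531 (plus strand), Siglecg at chr7:43408204-43418358 (plus), Cd33 at chr7:43527456-43533171 (minus) and Siglece at chr7:43651070-43660161 (minus). Cd22 is at chr7:30865402-30880342 (minus) and Siglech at chr7:55768178-55778925 (plus). Within the cluster, Cd33 and Siglece were higher in the interstitial populations than in AM, while Siglecg was lower and the gated Siglecf was found almost only in AM. These genes are close paralogs, and reads that matched more than 1 of them were not counted by the authors.

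**Figure D3:**
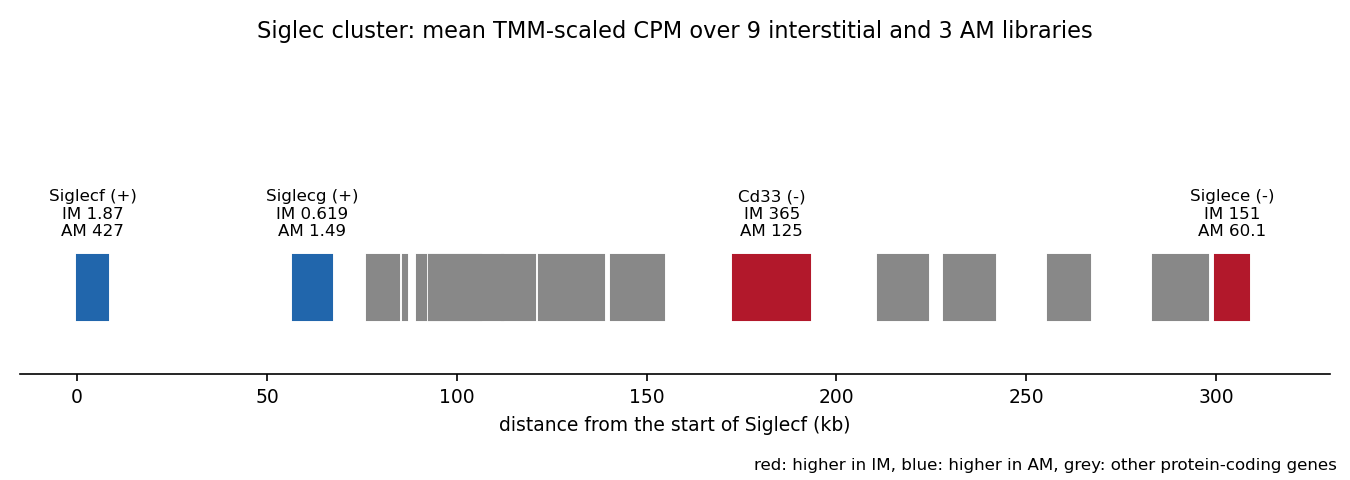
Genes of the Siglec cluster on mouse chromosome 7, placed by distance from the start of Siglecf in kilobases, with grey boxes for other protein-coding genes and Siglec genes coloured by where they were higher (Siglecf by its gate). Labels give the strand and the mean CPM in interstitial and AM libraries, and the Cd33 box follows a later annotation with longer bounds than the counting used. Cd33 and Siglece are higher in the interstitial populations, and Siglecf and Siglecg in AM, over a span of 308.8 kb.

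Promoter windows of 250 bases before to 50 after the start (RefSeq, GRCm38.p6, the build also called mm10) were at hand for 6 of the 7 members, all but Siglec1. Over 20 pairs of windows of different members, 1 pair shared an exact run of 12 or more bases on the coding strand. The pair was Siglecf and Cd33, and their 250 upstream bases are shown because these cluster neighbours led the family in different populations, Siglecf in AM and Cd33 in IM1, IM2 and IM3, while parts of their promoters are the same. Capitals mark the runs of 12 or more bases that the windows share, and the windows lie at chr7:43351091-43351340 on the plus strand for Siglecf and at chr7:43533172-43533421 on the minus strand for Cd33.
Siglecf: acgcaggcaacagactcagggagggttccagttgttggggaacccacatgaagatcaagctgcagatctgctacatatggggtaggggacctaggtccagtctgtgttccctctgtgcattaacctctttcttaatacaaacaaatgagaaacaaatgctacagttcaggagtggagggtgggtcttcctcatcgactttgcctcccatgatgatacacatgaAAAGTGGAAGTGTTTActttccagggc
Cd33: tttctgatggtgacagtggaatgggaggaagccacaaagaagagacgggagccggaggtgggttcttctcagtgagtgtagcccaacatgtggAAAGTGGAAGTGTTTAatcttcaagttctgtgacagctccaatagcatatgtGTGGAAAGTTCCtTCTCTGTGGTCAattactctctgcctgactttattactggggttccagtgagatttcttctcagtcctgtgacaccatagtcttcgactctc

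The longest shared run has 16 bases and begins 27 bases before the start of Siglecf and 157 bases before that of Cd33. It was found in the windows of 2 of 27025 genes, these members themselves. The other capitals in Cd33 mark runs of 12 bases each whose matches in Siglecf lie just after its start.

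The 16-base run holds GGAAGT, a core of sites for ETS family factors. On either strand, GGAAGT was found in the windows of Siglecf, Siglech and Cd33, and in 26.5% of all genes' windows. GAGGAA, a PU.1-type core, was found in the windows of Siglece, Siglecf, Siglecg, Siglech and Cd33, and in 31.3% of all genes. TGCTGA, a MAF factor pattern, was found in Siglecf alone among the members, and in 21.7% of all genes. TTGCNNAA, a C/EBP pattern, was found in Siglech alone, and in 12.2% of all genes. TGANTCA (AP-1, in 8.97% of all genes) and an IRF motif (in 3.99%) were not in these windows, and Cd22 held none of the 6 motifs searched. Such matches describe letters in the window and not factor binding.

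Near genes of other families went the same direction as their Siglec neighbour for some members, but not for all. These directions are read beside the 64.6% of all genes called for the interstitial mean against AM, 35.9% higher and 28.7% lower. Adam33, 5406 bases from Siglec1, averaged 93.2 CPM in interstitial libraries and 9.25 CPM in AM, the opposite direction to Siglec1 (log2 fold change 3.15, edgeR adjusted p = 6.82e-12). Atrn, 38887 bases from Siglec1, went the same direction as Siglec1 (log2 fold change -0.94, edgeR adjusted p = 0.00276). Tubgcp5, the nearest gene to Siglech, averaged 107 CPM in interstitial libraries and 28.6 CPM in AM (log2 fold change 1.87, edgeR adjusted p = 6.17e-09), the same direction as Siglech. Farther from Siglech, Cyfip1 went the same direction (log2 fold change 0.81, edgeR adjusted p = 0.000304). Nipa2, farther still, went the opposite direction (log2 fold change -1.1, edgeR adjusted p = 1.38e-07). Zfp715, the nearest gene to Siglecf outside the cluster, averaged 46.8 CPM in interstitial libraries and 43.7 CPM in AM (log2 fold change 0.1, edgeR adjusted p = 0.569). Ceacam18, 1775 bases from Siglece, averaged 1.03 CPM in interstitial libraries and 0.284 CPM in AM (log2 fold change 1.8). At levels this low it passed the filter on low counts through interstitial libraries. Its direction, that of Siglece, was thus fixed by the filter and is given as a description. Ctu1, 11855 bases from Siglece, did not pass (log2 fold change -0.05, edgeR adjusted p = 0.81). The nearest tested genes to Cd33 and Siglecg went the direction of those members. They were Zfp658 (log2 fold change 2.5, edgeR adjusted p = 7.74e-10) and Etfb (log2 fold change -1.35, edgeR adjusted p = 8.49e-06). For Cd22, the nearest genes Ffar1 and Ffar3 were not tested. Its nearest tested gene was Mag, itself a Siglec gene, which went the direction of Cd22 (log2 fold change -1.73, edgeR adjusted p = 6.96e-10). Ffar2, farther off, averaged 0 CPM in interstitial libraries and 9.23 CPM in AM, so its direction was fixed by the filter.

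Between IM1 and IM2, 1 of 7 members was called (Siglece, lower in IM1), beside 1.71% of all genes tested in either direction and 1.22% lower in IM1. With the replicate letter as a block, 392 genes in place of 241 were called there, and Siglece was still the 1 member called (adjusted p = 0.0192). Between IM1 and IM3, 5 of 7 were called, with Siglec1, Siglech and Cd22 higher in IM1 and Siglece and Siglecf lower, beside 24.4% of all genes in either direction, 12.7% higher and 11.7% lower. Between IM2 and IM3, 4 of 7 were called, with Siglec1 and Siglech higher in IM2 and Siglece and Siglecf lower, beside 11.4% of all genes in either direction, 6.49% higher and 4.94% lower. For IM1 against AM, 6 of 6 members were called, 3 each way, beside 58.8% of all genes, 33.1% higher and 25.7% lower. For IM2 against AM, 5 of 6 were called, with Siglecg not past the threshold, beside 60.5% of all genes, 34.3% higher and 26.2% lower. For IM3 against AM, 6 of 6 were called, 3 each way, beside 57.4% of all genes, 32.4% higher and 25% lower. Siglech is among the members called higher in each of these counts against AM, and its direction was fixed by the filter on low counts. The comparisons share libraries, so their counts are not independent of one another. The 2 largest differences within the interstitial compartment were those of Siglech and Siglec1, both lower in the CD206-low IM3.

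**Figure D4:**
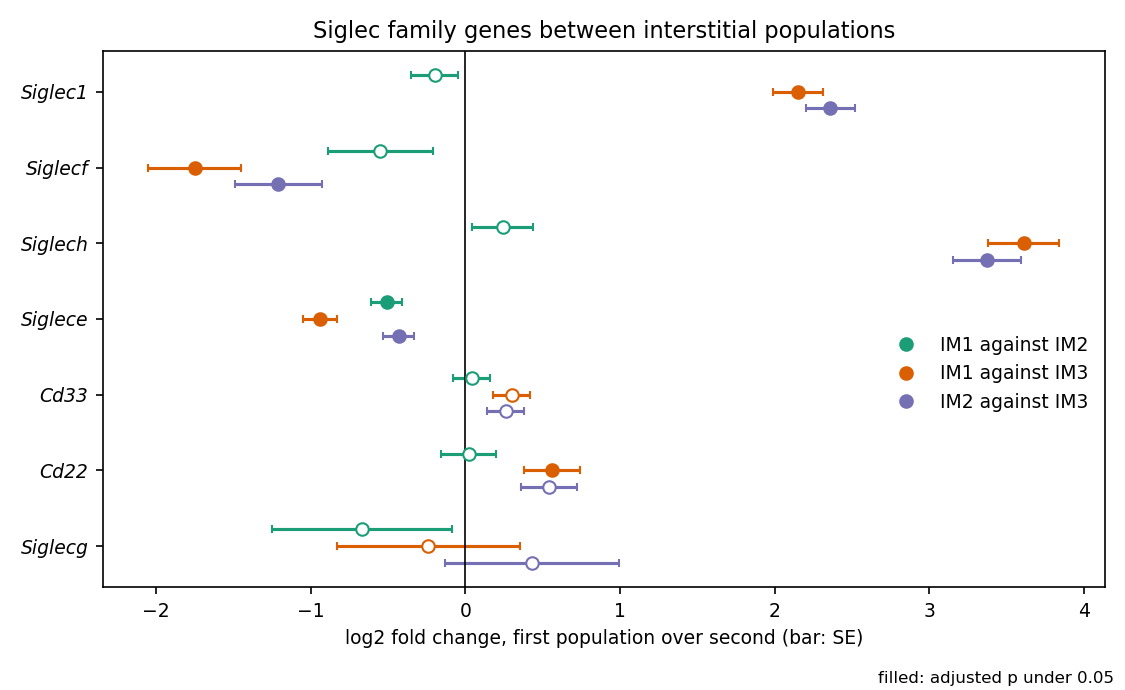
Log2 fold changes with SE of each Siglec family gene between pairs of interstitial populations; filled points have an edgeR adjusted p under 0.05 and open points do not. Siglech and Siglec1 lie at 3.61 and 2.15 for IM1 against IM3, and Siglece lies below 0 in all 3 pairs.

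Genes that work with the Siglecs were read in the same fit, with a median log2 fold change over all genes tested of 0.1 for the interstitial mean against AM. Of 4 other Siglec-type and paired immunoglobulin-like receptor genes tested, 4 were lower in the interstitial populations than in AM, with a median log2 fold change of -1.39, beside 28.7% of all genes called lower (Siglec15 had 0 counts). The inhibitory receptor gene Pilra was at 23.9, 24.8 and 32.7 CPM in IM1, at 44.1, 66.1 and 81 CPM in IM2, at 196, 247 and 261 CPM in IM3 and at 404, 420 and 439 CPM in AM. Its 4 ranges were separate and in the order IM1, IM2, IM3, AM. The log2 fold change of Pilra was -2.51 ± 0.14 for the interstitial mean against AM (edgeR adjusted p = 2.19e-10), -3.11 ± 0.2 for IM1 against IM3 and -1.23 ± 0.19 for IM1 against IM2. Mag, the Siglec gene best known from myelin and a neighbour of Cd22, was at 15.8 ± 2.75 CPM in interstitial libraries and 52 ± 2.36 CPM in AM (SD, n = 9 and 3), with a log2 fold change of -1.73 ± 0.11 (edgeR adjusted p = 6.96e-10).

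Among 17 signalling partners, 4 were higher in the interstitial populations than in AM, 7 were lower and 6 did not pass, with a median log2 fold change of -0.14. The 11 of 17 called are near the 64.6% of all genes called in that comparison. The kinase gene Src averaged 29.5 ± 12.6 CPM in interstitial libraries and 1.41 ± 0.329 CPM in AM (log2 fold change 4.27 ± 0.32, edgeR adjusted p = 7.65e-09). Another kinase gene of the Src family, Fgr, averaged 70.6 ± 47.2 CPM in interstitial libraries and 640 ± 34.8 CPM in AM (log2 fold change -3.46 ± 0.14, edgeR adjusted p = 5.08e-12). Socs3, whose product binds phosphorylated CD33 in human cells, averaged 667 ± 129 CPM in interstitial libraries and 14.7 ± 1.82 CPM in AM (log2 fold change 5.49 ± 0.17, edgeR adjusted p = 2.14e-13). The genes of the phosphatase SHP-1 and the adaptor DAP12 differed less: Ptpn6 had a log2 fold change of -0.5 ± 0.09 (edgeR adjusted p = 0.000231) and Tyrobp of -0.57 ± 0.19 (edgeR adjusted p = 0.0164). Tyrobp was at 2010 to 4480 CPM in interstitial libraries and 3700 to 3980 CPM in AM, with overlapping ranges.

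IM1 was lower than IM3 for 10 of the 17 partners and the other 7 did not pass, with a median log2 fold change of -0.56 against 0.02 over all genes, of which 11.7% were called lower in IM1. Fgr averaged 29.7 ± 4.56 CPM in IM1 and 131 ± 10 CPM in IM3 (SD, n = 3 each), a log2 fold change of -2.14 ± 0.2 (edgeR adjusted p = 1.16e-06). Csk, an inhibitor of Src family kinases, averaged 84.9 ± 6.2 CPM in IM1 and 174 ± 9.39 CPM in IM3, a log2 fold change of -1.03 ± 0.11 (edgeR adjusted p = 5.14e-06). IM2 was lower than IM3 for 6 of the 17, and the other 11 did not pass, beside 4.94% of all genes called lower in IM2.

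Genes of sialic acid metabolism, which makes and breaks down the ligands of the family, also differed between the compartments. Cmah, which turns the sialic acid Neu5Ac into Neu5Gc, was at 99.8, 128 and 150 CPM in IM1, at 122, 111 and 118 CPM in IM2 and at 22.3, 18 and 23.3 CPM in IM3, and it had 0 counts in AM. Against 3 counts over all AM libraries it was at least 1800-fold higher in IM1, at least 1640-fold in IM2 and at least 299-fold in IM3. Cmah and Siglech thus shared the pattern of high IM1 and IM2, lower IM3 and no read in AM, and the log2 fold change of Cmah was 2.57 ± 0.17 for IM1 against IM3 (edgeR adjusted p = 1.32e-07). Of the 7 genes tested, 2 were higher in the interstitial populations than in AM and 5 were lower, beside 35.9% of all genes called higher and 28.7% lower. Without Cmah, whose direction was fixed by the filter on low counts, 1 of 6 genes was higher and 5 were lower. The 2 higher ones were Cmah, which passed the filter through interstitial libraries alone, and Npl, the lyase gene of sialic acid breakdown. Npl was at 181, 104 and 165 CPM in IM1 and at 84.9, 72.2 and 86.1 CPM in IM2. It was at 28.8, 26.5 and 28.5 CPM in IM3 and at 19.7, 17.9 and 16.6 CPM in AM. Its log2 fold change was 0.63 ± 0.18 for IM3 against AM (edgeR adjusted p = 0.00678) and 2.43 ± 0.18 for IM1 against IM3 (edgeR adjusted p = 1.11e-07). The lower ones included Gne, the enzyme that begins the pathway, at 23 ± 3.53 CPM in interstitial libraries and 46.9 ± 1.09 CPM in AM (log2 fold change -1.03 ± 0.12, edgeR adjusted p = 2.41e-06).

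Sialyltransferases attach sialic acids to glycans, and 13 of the 20 listed were tested. Of these, St3gal5, St3gal6, St8sia1, St8sia2 and St8sia6 passed the filter on low counts through interstitial libraries alone, so their direction was fixed by the filter. Of the other 8, 6 were higher in the interstitial populations than in AM, 1 was lower (St3gal4) and 1 did not pass, with a median log2 fold change of 1.27, beside 0.1 for all genes and 35.9% of all genes called higher. St8sia6 was at 24.4, 43 and 42.1 CPM in IM1, at 74.2, 73.3 and 76.6 CPM in IM2, at 68, 84.2 and 78.6 CPM in IM3 and without a read in AM. Against 3 counts over all AM libraries it was at least 528-fold higher in IM1, at least 1050-fold in IM2 and at least 1080-fold in IM3. The enzyme encoded by St8sia6 makes disialic acid structures, and in mouse these are known ligands of Siglec-E.

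St3gal6 averaged 144 ± 31.1 CPM in interstitial libraries and 0.856 ± 0.136 CPM in AM (log2 fold change 7.36 ± 0.19), and no interstitial library lay below 96.7 CPM. The filter fixed the direction of St3gal6, so these values are given as a description. St6gal1, whose α2,6-linked product is the preferred ligand of CD22, averaged 175 ± 43.8 CPM in interstitial libraries and 28.3 ± 2.15 CPM in AM (log2 fold change 2.6 ± 0.16, edgeR adjusted p = 7.77e-10). St8sia1 and St8sia2 had 120 and 126 reads over all interstitial libraries and 0 in AM. Pooled over those libraries, they were at least 13.1-fold and at least 13.7-fold higher. The reads of St8sia1 were uneven, with 0, 0 and 7 in IM1, 0, 26 and 8 in IM2 and 17, 41 and 21 in IM3. By population its bound was at least 2.34-fold in IM1, at least 11-fold in IM2 and at least 25.5-fold in IM3.

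Neu1, the lysosomal sialidase gene, averaged 121 ± 27.9 CPM in interstitial libraries and 324 ± 25.4 CPM in AM (log2 fold change -1.45 ± 0.08, edgeR adjusted p = 3.29e-10). In its list of 5 genes tested, 2 were lower in the interstitial populations and 3 did not pass, with a median log2 fold change of -0.25. Of all genes tested, 28.7% were called lower in that comparison and 64.6% in either direction, with a median of 0.1. Of 7 genes of known ligand carriers tested, Cd24a and Spn encode CD24 and CD43, which were negative gates of the interstitial sort. Of the other 5, 3 were lower in the interstitial populations and 2 did not pass, with a median log2 fold change of -0.76. This count too is read beside the 28.7% of all genes called lower. Cd24a was at 2.9 ± 1.65 CPM in interstitial libraries and 238 ± 19.3 CPM in AM, which is given as a description.

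**Figure D5:**
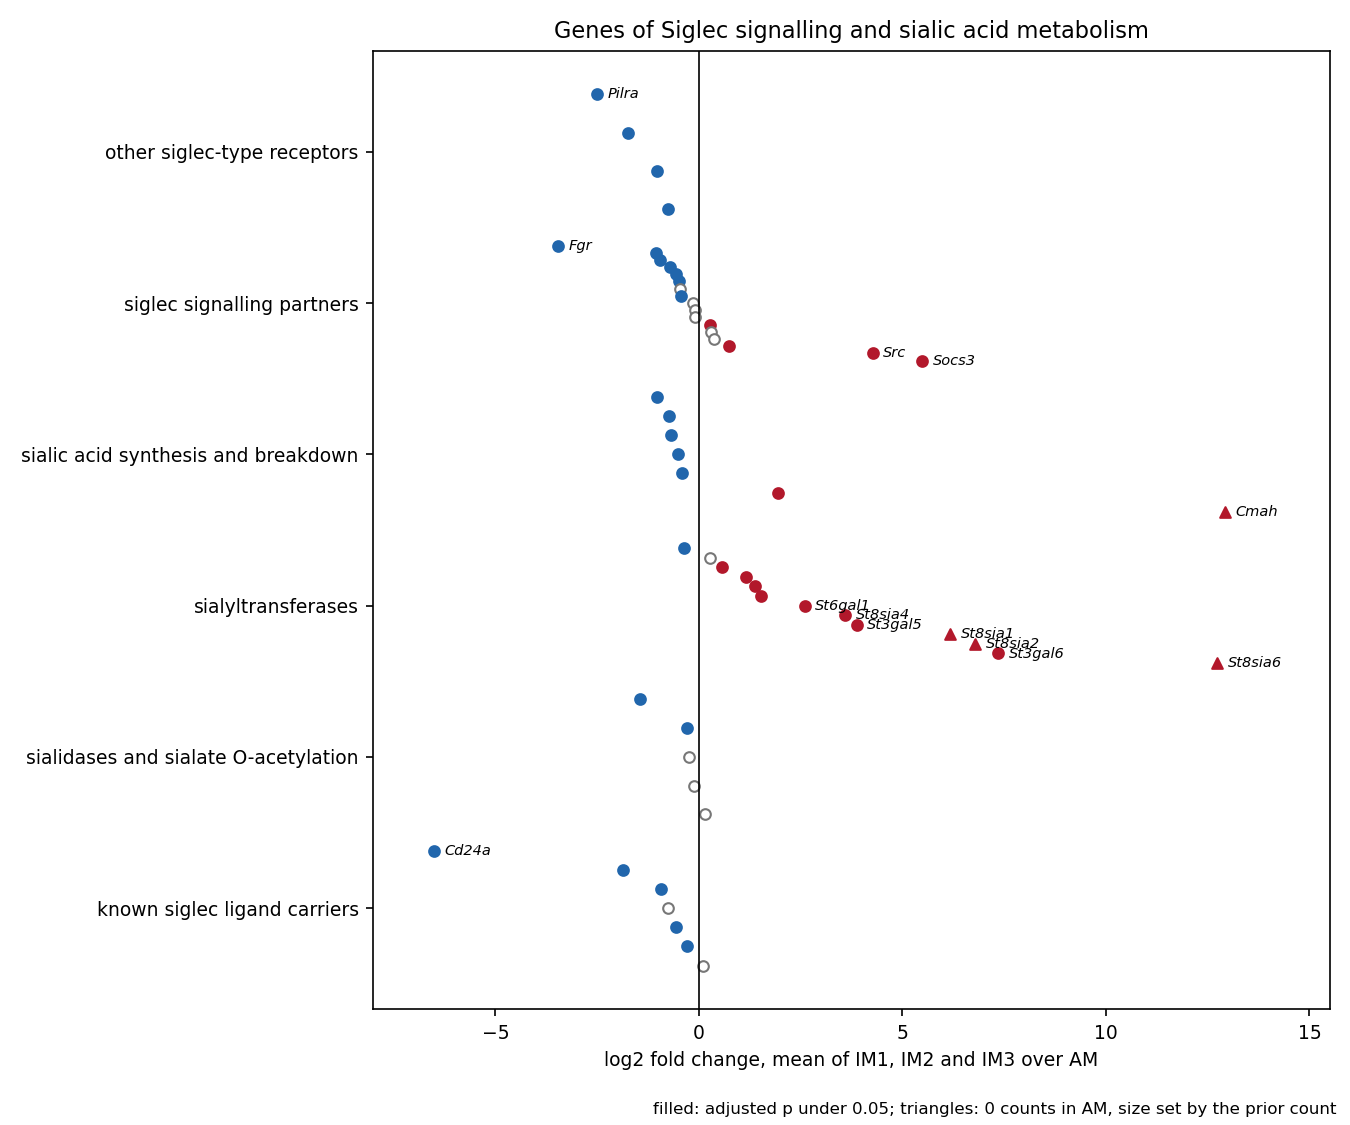
Log2 fold change of the mean of IM1, IM2 and IM3 over AM for genes of Siglec signalling and sialic acid metabolism, by list; filled points have an edgeR adjusted p under 0.05, and triangles had 0 counts in AM, so that their place rests on the prior count. The 4 other receptors lie to the left, and 6 of the 8 sialyltransferases whose direction the filter did not fix lie to the right among filled points.

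For each member, the genes with the most similar pattern were found by Pearson's r of log2 CPM. The libraries fall into 4 populations, so such r values mainly restate population differences and are given as a description. Over 12 libraries the nearest gene was Coro2b for Siglec1 (r = 0.975), Mefv for Siglece (r = 0.993), Nln for Siglecf (r = 0.995), Gm15601 for Siglecg (r = 0.929), Chp2 for Siglech (r = 0.999), Anln for Cd22 (r = 0.996) and Ip6k3 for Cd33 (r = 0.993). Over the 9 interstitial libraries Siglec1 lay nearest to Samd4 (r = 0.987), Fgfr1 and Cd209e, and Siglech lay nearest to Pla2g2d (r = 0.997), Bank1 and Slc7a13. Siglece lay nearest to Csk (r = 0.985), a gene of the signalling list, followed by Csf2ra and Cd244a. Cd22 lay nearest to Slco2b1 (r = 0.984), Csf1r and Tcf3, while for Cd33, which varied little there, the best r was 0.946, with Cep55.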

How the data were processed

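Per the labels' protocols, RNA from sorted lung macrophages was amplified with a SMART-Seq v4 kit and sequenced on Ion Proton. The deposited values are read counts per gene and sequencing run, made by the authors with featureCounts 1.5.0-p1 without strand, per the file headers, where reads matching several genes or places were left out. STAR 2.5.1b, Subread 1.5.0-p1, DESeq2 1.8.1, R 3.2.0 and the build mm10 are named in the submitters' processing notes. The 38 runs were summed to 12 libraries, and the sums equalled the deposited table of counts per library (0 values differed). Symbols were found for 42462 of 43346 identifiers (98.0%), and 71.06% to 77.6% of mapped reads were assigned to genes.

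Counts were tested with edgeR 4.0.16 under R 4.3.3 (TMM scaling, filterByExpr with a minimum count of 10, robust quasi-likelihood test, population as the only term, all 12 libraries in 1 fit), adjusted by Benjamini-Hochberg over 14095 genes. Levels are TMM-scaled CPM, except that cell type markers are CPM of assigned reads. The alternatives tried were DESeq2 1.42.0, voom of limma 3.58.1 with quality weights, other scalings, no filter, fits of the compared populations only, a replicate block and each library left out. The procedure was tested on simulated data. By the correlation of deviations from population means, replicate letters paired the libraries of IM1 and IM2 (0.166 to 0.292 for the same letter) and of IM2 and IM3 (0.143 to 0.189), where every value was over 0.1, but not those of IM1 and IM3 or of AM with any other population. Log2 CPM for likeness had a prior count of 2.

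Members and lists were chosen with earlier results of these data known. Genes named were the members, list genes with at least a 4-fold called difference (up to 4 each way), the 3 genes most like each member, and cell type markers. Mag, Ptpn6, Tyrobp, Csk, Npl, Gne, St6gal1, St3gal5, St3gal4, Neu1, Spn and the neighbouring genes were named after their values were seen. Of the genes most like a member, not all are printed.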

Additional observations from a re-analysis of the deposited data

How the results depend on the processing

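Over 45 results for members and 19 alternatives, 851 values were computed: 809 kept their direction and side of the threshold, 28 lost the call, 6 gained it and 8 turned direction. Those that turned were never called. For IM1 against IM2, Cd22 turned to a log2 fold change of -0.1 without IM1 B, -0.05 without IM1 C, -0.05 without IM2 A and -0.06 without IM2 B, and Cd33 to -0.07 without IM1 C and -0.06 without IM2 A. Siglecg turned to 0.16 for IM1 against IM3 without IM1 C and to -0.09 for IM2 against IM3 without IM2 A. With single libraries left out, these results reached at most 0.18 for Cd22, 0.12 for Cd33 and 0.77 for Siglecg between IM2 and IM3, and -0.53 for Siglecg between IM1 and IM3. The cause was not tested.

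The count of members called between IM1 and IM2 became 0 with quality weights and 0 with only those populations fitted, and was 0 to 1 with single libraries left out. All lost calls concerned Siglecg against AM, Siglece between IM1 and IM2 or IM2 and IM3, and Cd22 between IM1 and IM3. For IM3 against AM, Siglecg lost its call with no filter (adjusted p = 0.0629), and for IM1 against AM without IM1 C (adjusted p = 0.0944) or AM B (adjusted p = 0.0857). It gained one for IM2 against AM with quality weights (adjusted p = 0.0453). Over all genes, 241 were called between IM1 and IM2, but 591 with DESeq2, 93 with quality weights, 941 without the filter, 71 with those populations only, and 110 to 1904 with 1 library left out, the highest without IM1 B. Between IM1 and IM3, 3445 genes were called, but 2268 with those populations only.

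With the letter as a replicate block, 392 genes were called between IM1 and IM2 against 241 without, and no member's call changed. Depth limits Siglecg and the interstitial traces of Siglecf, which rest on 3 to 53 reads a library.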
